A study of Homo sapiens with 8 samples.

Results

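The protein arginine methyltransferases (PRMTs) are the enzymes that transfer methyl groups from S-adenosylmethionine (SAM) to arginine residues of histones, RNA-binding proteins and many other proteins. Here the 9 human genes of the family, PRMT1, PRMT2, PRMT3, CARM1 (also called PRMT4), PRMT5, PRMT6, PRMT7, PRMT8 and PRMT9, were taken by gene name from a table of 61906 genes; each name matched 1 row. The transcript levels were measured by poly(A) RNAseq in U251, a human glioblastoma cell line labelled as wild type, in 8 libraries. The groups comprised 4 biological replicates that received the DMSO vehicle and 4 that received LLY-283, a small-molecule PRMT5 inhibitor, at 100 nM for 24 h. Both groups were the same line grown in DMEM with serum, and the labels do not say whether the replicates were set up on different days, so that the p-values measure the spread between these libraries. The comparison addresses whether inhibition of PRMT5 activity was accompanied by a change in the mRNA of PRMT5 itself or of the related enzymes.

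All PRMTs can add a single methyl group to arginine, and the family is divided by the second one. Type I enzymes (PRMT1, PRMT2, PRMT3, CARM1, PRMT6 and PRMT8) produce asymmetric dimethylarginine, type II enzymes (PRMT5 and PRMT9) produce symmetric dimethylarginine (sDMA), and the type III enzyme PRMT7 stops at monomethylarginine. PRMT5 works in a complex with WDR77 and is best known for methylating the Sm proteins of the spliceosome and histone tails.

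The unit was TPM (transcript abundance scaled to the same total in each library), which also corrects for transcript length, so that the levels of different genes can be set side by side. TPM keeps no record of read number, so read depths remain unknown and counting errors cannot be given. A gene was tested if its average over the 8 libraries reached 1 TPM, and it was called when its adjusted p-value in limma was under 0.05. LLY-283 replicate 4 stood apart in its share of transcripts from the mitochondrial genome, which was 7.19% against 10.15% to 11.0% in the other 7 libraries. The glial markers VIM, NES, CD44, SOX2, GFAP and FABP7 were expressed in every library, S100B was low (2.34 to 4.94 TPM) and OLIG2 was listed at 0 in 6 of the 8 libraries. The leukocyte markers PTPRC and CD3E and the endothelial markers PECAM1, VWF and CDH5 were at most 0.5 TPM. Of the 7 glial markers tested, CD44 was called higher and NES, SOX2, GFAP and FABP7 lower, and their part in the values of the family was not tested. Of the epithelial markers, EPCAM and CDH1 were at most 0.28 TPM whereas KRT8 had 308 to 371 TPM, and among the neuronal markers SYT1 had 4.51 to 5.63 TPM, SNAP25 had 0.34 to 0.8 TPM and RBFOX3 was listed at 0 in 6 of the 8 libraries (at most 0.09 TPM).

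With LLY-283 the transcript levels of most of the PRMT family stayed near those of vehicle-treated cells. PRMT3 fell by 18.1% and PRMT9 by 19.4%, PRMT7 was 10.29% higher without passing the test, and the 5 other expressed members, PRMT5 among them, differed by less than 4%. No member reached a 1.5-fold change. Thus 2 of the 8 members tested were called, both lower, in a comparison in which 26.2% of all 14478 genes tested were called, 17.6% as lower and 8.61% as higher. A count of 2 in 8 is near that share over all genes, and is thus not particular to the family. The call of PRMT9 was lost in 14 of 20 alternative fits, whereas PRMT3 was called in all 20.

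For the members on which the comparison turned, the RefSeq promoter (GRCh38.p14, 250 bases before to 50 bases after the annotated start, 5′ to 3′ on the strand of the gene) is given. PRMT3 and PRMT9 are shown as the members that were called, and PRMT5 as the target of the drug. Capitals mark the GC box (GGGCGG, or CCGCCC on the other strand), the CCAAT box (CCAAT, or ATTGG on the other strand) and the E-box (CACGTG, the same on both strands).

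PRMT3, chr11:20387466-20387765, plus strand: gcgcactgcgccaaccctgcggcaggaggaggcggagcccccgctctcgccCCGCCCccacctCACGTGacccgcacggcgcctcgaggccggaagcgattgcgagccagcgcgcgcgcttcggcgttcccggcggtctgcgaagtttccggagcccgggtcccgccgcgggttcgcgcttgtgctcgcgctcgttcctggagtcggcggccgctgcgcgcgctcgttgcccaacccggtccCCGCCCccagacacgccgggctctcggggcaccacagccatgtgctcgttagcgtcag

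PRMT9, chr4:147684114-147684413, minus strand: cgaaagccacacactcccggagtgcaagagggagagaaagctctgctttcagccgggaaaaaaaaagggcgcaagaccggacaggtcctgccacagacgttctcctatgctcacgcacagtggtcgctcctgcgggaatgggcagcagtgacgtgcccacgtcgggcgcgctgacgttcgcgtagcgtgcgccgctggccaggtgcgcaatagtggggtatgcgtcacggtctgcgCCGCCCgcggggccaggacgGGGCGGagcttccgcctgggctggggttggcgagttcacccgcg

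PRMT5, chr14:22929327-22929626, minus strand: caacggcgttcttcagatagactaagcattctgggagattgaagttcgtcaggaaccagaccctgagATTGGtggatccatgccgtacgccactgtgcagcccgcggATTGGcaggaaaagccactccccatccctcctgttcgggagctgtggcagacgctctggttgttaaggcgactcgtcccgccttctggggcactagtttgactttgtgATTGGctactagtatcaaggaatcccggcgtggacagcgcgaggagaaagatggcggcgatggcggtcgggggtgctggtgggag

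The PRMT3 promoter was the most GC-rich of these, with 75.0% G and C and 48 CpG dinucleotides, against medians of 58.7% and 14 over 35116 RefSeq promoters. The PRMT9 promoter had 66.3% G and C with 33 CpG dinucleotides, and that of PRMT5 58.0% with 20. The windows of PRMT3 and PRMT9 held 2 GC boxes each, a motif found in 45% of the promoters, and that of PRMT5 held none. PRMT5 instead held 3 CCAAT boxes, a motif present in 34.6% of the promoters and in neither PRMT3 nor PRMT9. PRMT3 held 1 E-box, which occurs in 7.26% of promoters. None of the 3 held a TATA box (TATAAA on either strand), present in 11.5%. These are matches of letters only, and binding was not measured here. Among all 9 members the PRMT8 promoter stood apart, with 47.0% G and C and 1 CpG dinucleotide.

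The expressed members covered a wide range of levels. PRMT1, which places most of the asymmetric dimethylarginine of the cell, was the most abundant member with a mean of 210.6 ± 2.46 TPM in vehicle-treated cells (SD, n = 4), above 95.35% of the genes tested by its mean over the 8 libraries. PRMT5 followed with 100.0 ± 5.03 TPM, then PRMT2 with 77.9 ± 2.63 TPM and CARM1 with 46.1 ± 1.10 TPM (SD, n = 4 each). PRMT6 (35.95 ± 0.725 TPM) and PRMT7 (34.4 ± 2.78 TPM) were next, and PRMT3 (18.3 ± 0.551 TPM) and PRMT9 (5.77 ± 0.295 TPM) were the least abundant of the expressed genes. In each group the ranges of neighbouring members in this order did not overlap, with the exception of PRMT6 and PRMT7. PRMT6 was above PRMT7 by a ratio of 1.05 of the means in vehicle-treated cells, and PRMT7 was above PRMT6 by 1.04 in LLY-283-treated cells, so that the order of these 2 members was not resolved in either group.

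**Figure D1:**
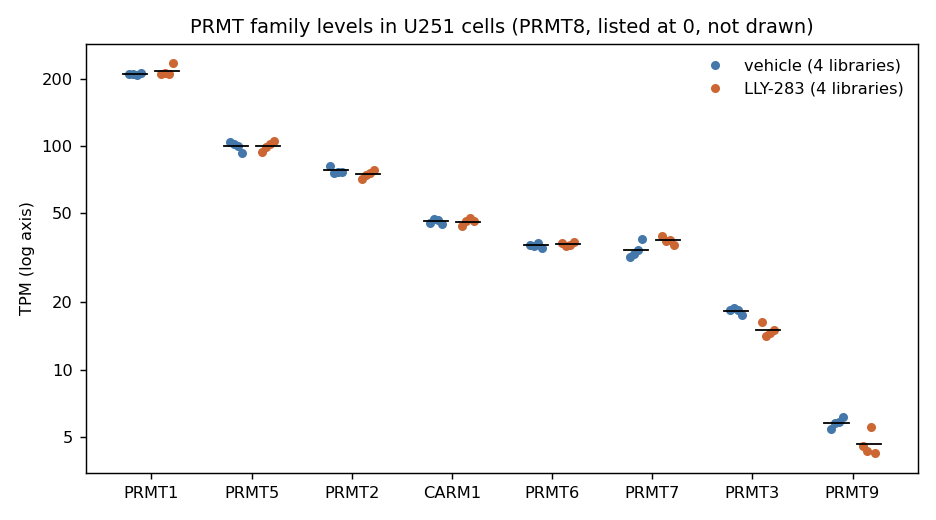
TPM (log axis) of the 8 expressed PRMT genes in the 4 vehicle (blue) and 4 LLY-283 (orange) libraries, with black bars at the group means. The order from PRMT1 (207.81 to 234.7 TPM) to PRMT9 (4.21 to 6.1 TPM) was the same in both groups apart from PRMT6 and PRMT7, which overlapped.

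PRMT8, the member known for its restriction to brain and neurons and for its anchoring at the plasma membrane, was listed at 0 in all 8 libraries and was not tested. Its gene (ENSG00000111218, chromosome 12, 3381349 to 3593973 of GRCh38) is the nearest relative of PRMT1 in the family. Since the depth is unknown, no upper limit can be set on its level.

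Summed over the family, the PRMT transcripts made up 529.0 ± 4.05 TPM with vehicle and 532.5 ± 17.8 TPM with LLY-283 (mean and SD of 4 libraries). Type I members held 73.5% ± 0.250 of this sum in vehicle-treated and 73.2% ± 0.497 in LLY-283-treated cells, and the type II members 19.99% ± 0.784 and 19.7% ± 0.470. The type III member PRMT7 held 6.501% ± 0.569 and 7.12% ± 0.483. PRMT1 alone held 39.8% ± 0.589 and 40.8% ± 0.981. The highest sum was that of LLY-283 replicate 4 (558.0 TPM), where PRMT1 was also highest.

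PRMT5 (ENSG00000100462, chromosome 14, 22920525 to 22929408, minus strand, 17 exons in the canonical transcript), the target of LLY-283, had 104.37, 102.38, 100.39 and 92.86 TPM in vehicle replicates 1 to 4 and 94.3, 99.25, 101.97 and 106.01 TPM in LLY-283 replicates 1 to 4. The groups overlapped over nearly their whole range, with the lowest value in vehicle replicate 4 and the highest in LLY-283 replicate 4. The log2 fold change, computed as LLY-283 over vehicle on log2(TPM + 0.1), was 0.01 with a 95% interval of -0.10 to 0.11 (limma, adjusted p = 0.944), which corresponds to 0.934-fold to 1.08-fold. The antisense gene PRMT5-AS1, which overlaps PRMT5 on the opposite strand, had at most 0.06 TPM in any library, and the divergent transcript PRMT5-DT at most 0.2 TPM. Since the counting by strand is not stated, reads from the overlap of PRMT5 and PRMT5-AS1 cannot be assigned with certainty. The estimated levels of PRMT5-AS1 and PRMT5-DT were under 1% of that of PRMT5. For PRMT5-AS1 this estimate rests on the same assignment of reads.

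The profile of PRMT5 over the 8 libraries was most like those of LPCAT1 (Pearson r = 0.899), GRB2 (r = 0.876) and P3H3 (r = 0.867) among 10970 other genes averaging 5 TPM or more. These correlations describe the likeness over 8 libraries that share their scaling, and with so many genes compared such values carry no test.

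PRMT9 (ENSG00000164169, chromosome 4, 147637785 to 147684163), the other type II enzyme, which methylates the splicing factor SF3B2, had 5.39, 5.74, 5.85 and 6.1 TPM with vehicle (replicates 1 to 4) and 4.55, 4.33, 5.53 and 4.21 TPM with LLY-283. The LLY-283 values were the lower ones except in replicate 3, which lay above vehicle replicate 1. The decrease had a log2 fold change of -0.31 (95% interval -0.53 to -0.10, limma, adjusted p = 0.0404). The call was close to the threshold, and it was lost in 14 of 20 alternative fits with adjusted p-values of up to 0.200. Over the alternatives the log2 fold change was -0.39 to -0.17, the smallest decrease being that with quantile normalization. The call was lost when any 1 library other than LLY-283 replicate 3 was left out. An exact permutation test of the 8 values gave p = 0.0571 (two-sided), where the smallest value that 4 against 4 libraries can give is 0.0286. PRMT9 overlaps TMEM184C (mean 19.99 TPM) on the opposite strand, so that a part of its reads may not be separable.

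Among the type I members, PRMT3 (ENSG00000185238, chromosome 11, 20387558 to 20509338, plus strand, 16 exons in the canonical transcript) fell. PRMT3 is a cytosolic enzyme with a zinc finger that binds and methylates the ribosomal protein RPS2. It had 18.56, 18.8, 18.44 and 17.54 TPM with vehicle (replicates 1 to 4) and 16.27, 14.14, 14.54 and 15.08 TPM with LLY-283. Every LLY-283 value lay under every vehicle value, a separation that was found for this member alone in the family and in 29.2% of all genes tested. The log2 fold change was -0.29 (standard error 0.052, 95% interval -0.41 to -0.17, limma, adjusted p = 0.00392), a 1.22-fold decrease. The decrease was called in all 20 alternative fits, with log2 fold changes of -0.33 to -0.22 and adjusted p-values of 0.00309 to 0.0325, and the exact permutation test gave the smallest p that 8 libraries allow (0.0286). The transcripts whose profiles were most like that of PRMT3 were DHRS13 (r = 0.990), ANXA4 (r = 0.982) and INSIG1 (r = 0.982), again over 8 libraries and 10970 genes and with the difference between the groups included.

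**Figure D2:**
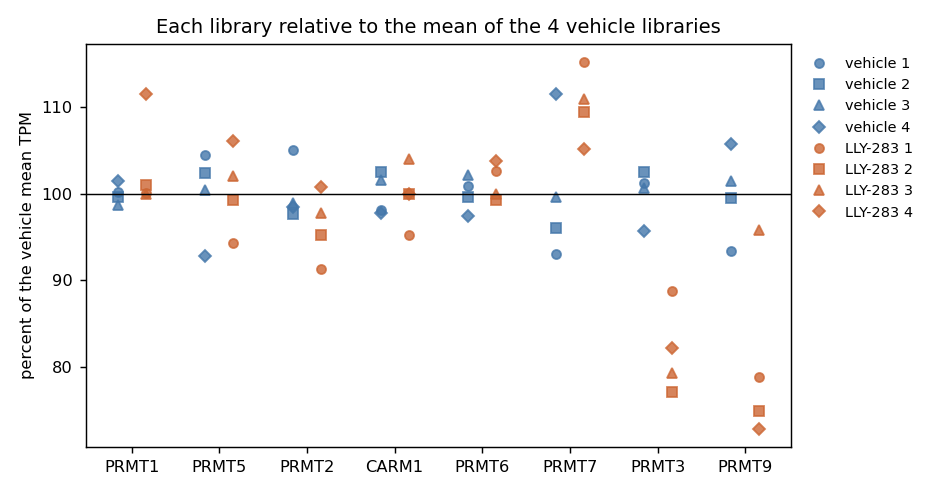
TPM of each library as a percentage of the mean of the 4 vehicle libraries for the 8 expressed members, with 1 marker shape per replicate number. The LLY-283 libraries lay between 77.1% and 88.7% for PRMT3, below all vehicle libraries, whereas PRMT5 ranged from 92.9% to 104.4% with vehicle and from 94.3% to 106.0% with LLY-283.

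PRMT1 (ENSG00000126457, chromosome 19, 49675786 to 49689029) had 211.13, 209.86, 207.81 and 213.7 TPM with vehicle (replicates 1 to 4) and 210.85, 212.67, 210.68 and 234.7 TPM with LLY-283. Replicates 1 to 3 of LLY-283 lay within the vehicle range, and replicate 4, the library with the low mitochondrial share, lay above all others. The log2 fold change of 0.04 (95% interval -0.04 to 0.13, limma, adjusted p = 0.429) was reduced to 0.01 without that library (adjusted p = 0.845). With the GC and length trend removed it was 0.14 and was called (adjusted p = 0.0376), but not with the replicate block added (adjusted p = 0.0609).

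PRMT2 (ENSG00000160310, chromosome 21, 46635595 to 46665124), a coactivator of nuclear receptors with an SH3 domain, had 81.79, 76.07, 77.03 and 76.7 TPM with vehicle (replicates 1 to 4) and 71.11, 74.19, 76.15 and 78.47 TPM with LLY-283. The groups overlapped, with the highest value in vehicle replicate 1 and the lowest in LLY-283 replicate 1. The log2 fold change was -0.06 (95% interval -0.14 to 0.03, limma, adjusted p = 0.326). CARM1 (ENSG00000142453, chromosome 19, 10871553 to 10923075), which methylates histone H3 and transcriptional coactivators, had 45.21, 47.22, 46.84 and 45.07 TPM with vehicle and 43.88, 46.1, 47.91 and 46.04 TPM with LLY-283. Both the lowest and the highest CARM1 value were in LLY-283 libraries, and the vehicle range lay between them. Its log2 fold change was -0.0036 (95% interval -0.08 to 0.08, limma, adjusted p = 0.952), the smallest difference of the 8 members tested. CARM1 overlaps YIPF2 (mean 28.4 TPM) on the opposite strand.

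PRMT6 (ENSG00000198890, chromosome 1, 107056674 to 107067636), a nuclear enzyme that methylates histone H3, is annotated with a canonical transcript of 1 exon, whereas those of the other members have 10 to 19. It had 36.29, 35.82, 36.7 and 35.01 TPM with vehicle and 36.89, 35.67, 35.97 and 37.31 TPM with LLY-283. The groups overlapped, and the log2 fold change was 0.02 (95% interval -0.05 to 0.09, limma, adjusted p = 0.687). With the GC and length trend removed PRMT6 was at 0.11 and was called (adjusted p = 0.0433), but not with the replicate block added (adjusted p = 0.103). For PRMT1, PRMT2, CARM1, PRMT5 and PRMT6 the 95% interval lay within a 1.2-fold change in either direction with the scaling as reported. With the GC and length trend removed, the log2 fold changes of PRMT1 (0.14), PRMT2 (0.04), PRMT5 (0.12) and PRMT6 (0.11) lay above the upper limits of these intervals, which therefore hold for the reported scaling only.

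PRMT7 (ENSG00000132600, chromosome 16, 68310951 to 68360852), the monomethylating enzyme, had 31.97, 33, 34.23 and 38.32 TPM with vehicle (replicates 1 to 4) and 39.57, 37.61, 38.12 and 36.13 TPM with LLY-283. Apart from vehicle replicate 4, every vehicle value was below every LLY-283 value. The log2 fold change was 0.14 (95% interval 0.01 to 0.27), and with an adjusted p of 0.09995 (limma; 0.0345 before adjustment) PRMT7 was not called; the exact permutation test gave p = 0.114. It was called without vehicle replicate 4 (log2 fold change 0.19, adjusted p = 0.0201), and with quantile normalization (0.18, adjusted p = 0.0394), median-of-ratios scaling (0.19, adjusted p = 0.0331) and after correction for GC content and length (0.21, adjusted p = 0.0132, or 0.0343 with the replicate block added). The same vehicle replicate 4 had the lowest PRMT5, PRMT3, CARM1 and PRMT6 values of its group, and the highest PRMT1 and PRMT9 values. PRMT7 is annotated with 55 transcripts, the most in the family, and the values are sums over them that do not show which isoform was present.

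**Figure D3:**
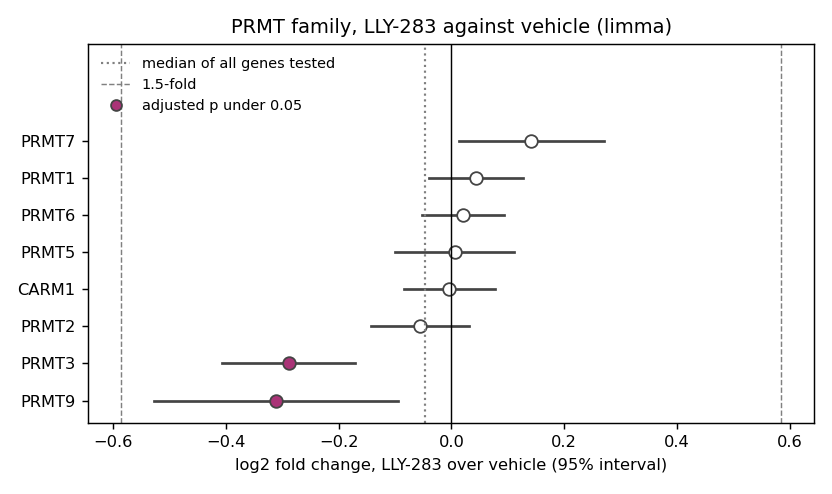
Log2 fold change (LLY-283 over vehicle) of the 8 members tested, with 95% intervals from limma; filled points had an adjusted p-value under 0.05, the dotted line is the median of all genes tested (-0.05) and the dashed lines are 1.5-fold. PRMT3 (-0.29) and PRMT9 (-0.31) were called, and the intervals of all 8 members lay inside the 1.5-fold lines.

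Over the 8 members tested, 4 had a log2 fold change above 0 and 4 below 0, with a median of 0.00 against -0.05 for all genes tested. No member was called higher in limma (1 at an unadjusted p under 0.05, PRMT7), and 2 were called lower (2 at an unadjusted p under 0.05). By the exact permutation test, 1 member (PRMT3) reached the smallest p of 0.0286. The 1.5-fold threshold was passed by none of the members and by 3.87% of all genes tested. The farthest bound of any member's 95% interval was that of PRMT9, at 1.44-fold. The balance of calls over all genes depended on the scaling: decreases made up 67.1% of the calls as reported, 49.3% with quantile normalization, 49.2% with median-of-ratios scaling and 36.6% with the GC and length trend removed. The direction of PRMT3 and PRMT9 (lower) and of PRMT7, PRMT1 and PRMT6 (higher) was kept in each of the 20 alternative fits, whereas PRMT2, CARM1 and PRMT5 changed sign in some of them without being called (PRMT2 from -0.08 to 0.04, CARM1 from -0.02 to 0.07, PRMT5 from -0.03 to 0.12).

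**Figure D4:**
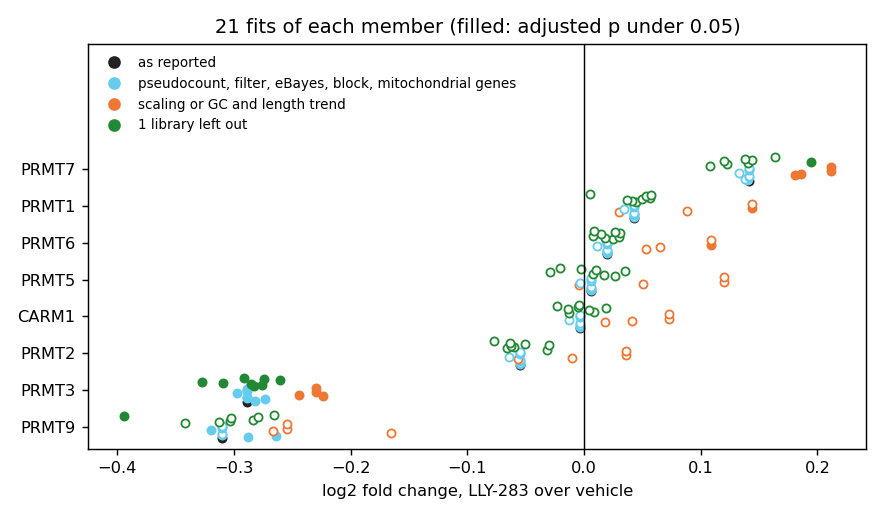
Log2 fold change of each member in 21 fits, the reported one and 20 alternatives; filled points had an adjusted p-value under 0.05. PRMT3 was filled in every fit (-0.33 to -0.22), PRMT9 lost its call in 14 alternatives, and PRMT7 gained one in 5.

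Genes around arginine methylation were read from lists written for this comparison with earlier results of these data known. Of 70 genes, 5 of them noncoding or pseudogene entries named after PRMTs, 60 were tested, 14 were called higher and 11 lower, and the median log2 fold change was 0.02. Over all genes tested 8.61% were called higher and 17.6% lower (26.2% in either direction), with a median of -0.05, and the counts of the lists that follow stand beside these shares. The shares hold for the reported scaling. Genes called higher and lower numbered 1247 and 2541 as reported and 1927 and 1866 with median-of-ratios scaling. With the GC and length trend removed they numbered 2763 and 1593. Both arginine methyltransferases outside the PRMT family fell. METTL23, a histone arginine methyltransferase, had 47.3 ± 1.61 TPM with vehicle and 30.9 ± 1.76 TPM with LLY-283 (SD, n = 4), a log2 fold change of -0.62 (limma, adjusted p = 5.80e-05), and was past 1.5-fold. NDUFAF7, the mitochondrial enzyme that methylates a subunit of respiratory complex I, had 18.1 ± 0.753 TPM with vehicle and 13.5 ± 0.287 TPM with LLY-283, a log2 fold change of -0.42 (adjusted p = 0.000302), and overlaps PRKD3 (mean 19.3 TPM) on the opposite strand.

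Of the 4 partners of PRMT5, 1 was called. RIOK1, an adaptor that competes with CLNS1A for PRMT5 and recruits nucleolin, rose from 14.7 ± 0.764 TPM with vehicle to 16.6 ± 0.474 TPM with LLY-283 (SD, n = 4), by 0.17 on the log2 scale (limma, adjusted p = 0.0287), and its call was lost in 6 of 20 alternative fits (adjusted p of up to 0.0799), namely without the filter on low values and without vehicle replicate 2, 3 or 4 or LLY-283 replicate 1 or 3. WDR77, the obligate partner of PRMT5, had 61.39 to 64.52 TPM with vehicle and 55.76 to 60.29 TPM with LLY-283. These ranges did not overlap, but the log2 fold change of -0.10 was not called (adjusted p = 0.0615); it was called without LLY-283 replicate 4 (adjusted p = 0.0334) and with the mitochondrial genes left out (adjusted p = 0.0346), and the log2 fold change was 0.0050 with the GC and length trend removed. WDR77 overlaps ATP5PB (mean 517.9 TPM) on the opposite strand. CLNS1A, which brings Sm proteins to PRMT5, and COPRS, which directs PRMT5 to histones, had log2 fold changes of 0.06 and 0.04 (adjusted p = 0.344 and 0.547). With the GC and length trend removed both were called higher, CLNS1A at 0.15 (adjusted p = 0.0446) and COPRS at 0.14 (adjusted p = 0.0377), and likewise with the replicate block added (adjusted p = 0.0463 and 0.0307).

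Among 6 partners of the other PRMTs, BTG1 (log2 fold change -0.21, limma adjusted p = 0.00520) and BTG2 (-0.44, adjusted p = 0.000645), antiproliferative proteins that bind PRMT1, were called lower, and the 4 other genes were not called (26.2% of all genes tested were called). BTG1 lost its call with the replicate block and the GC and length trend removed together (-0.15, adjusted p = 0.0796). Of 7 tested Tudor domain proteins, which read methylarginine, 3 were called, all higher, where 8.61% of all genes tested were called higher. They were SMNDC1 (0.59, adjusted p = 0.000191) and the near-identical SMN1 (0.33, adjusted p = 0.000929) and SMN2 (0.21, adjusted p = 0.0196), between which reads are divided by estimation. The call of SMN2, named here to complete the count, was lost without vehicle replicate 1, 3 or 4 or LLY-283 replicate 3 (adjusted p of up to 0.0594). Of 7 tested genes for the removal of arginine or its methylated forms, JMJD6, a proposed arginine demethylase, was called higher (0.24, adjusted p = 0.00144). The peptidylarginine deiminases PADI2 (359.1 ± 5.35 TPM with vehicle, 259.7 ± 12.04 TPM with LLY-283, SD, n = 4; -0.47, adjusted p = 4.70e-05) and PADI3 (267.0 ± 4.43 to 203.6 ± 6.97 TPM; -0.39, adjusted p = 5.80e-05), which convert arginine to citrulline, were called lower.

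Among 15 substrates of PRMT5, 4 were called higher and 1 lower, and among 16 substrates of type I enzymes 5 were called higher and 4 lower, beside 8.61% higher and 17.6% lower over all genes tested. The calls of SNRPD1 and COIL, 2 of the 4 increases among PRMT5 substrates and named here for this reason, were each lost in 7 of 20 alternative fits. For PRMT5 the smallest p-values were those of SRSF1 (log2 fold change 0.18, limma adjusted p = 0.00182) and NCL (0.11, adjusted p = 0.0138) among increases and of E2F1 (-0.35, adjusted p = 0.000139) as the decrease. Of the RNA-binding substrates of type I enzymes, TAF15 fell from 325.1 ± 8.19 TPM with vehicle to 196.5 ± 3.35 TPM with LLY-283 (-0.73, adjusted p = 2.58e-06) and EWSR1 from 355.2 ± 5.47 to 276.5 ± 9.31 TPM (-0.36, adjusted p = 7.51e-05; SD, n = 4 each). SAFB, a scaffold attachment factor, was among the increases (0.23, adjusted p = 0.000449), and overlaps SAFB2 (mean 70.02 TPM) on the opposite strand. None of the 4 genes for SAM and methylthioadenosine was called in limma (4 at an unadjusted p under 0.05), although the groups did not overlap for 3 of them (29.2% of all genes tested), which also had the smallest exact permutation p of 0.0286. MTAP, which clears the PRMT5-inhibiting metabolite methylthioadenosine, was expressed at 74.7 ± 3.34 and 69.2 ± 3.71 TPM (-0.11, adjusted p = 0.113). MAT2A, the SAM synthetase, had 171.04 to 176.26 TPM with vehicle and 127.74 to 164.36 TPM with LLY-283 (-0.19, adjusted p = 0.0695), and was called without LLY-283 replicate 4, which held the lowest value (-0.11, adjusted p = 0.00621). The other 2 genes, MAT2B and AHCY, were each called higher in 5 of 20 alternative fits, median-of-ratios scaling and removal of the GC and length trend among them. The 5 noncoding and pseudogene entries named after PRMT1, PRMT5 or CARM1 had at most 0.2 TPM and were not tested.

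**Figure D5:**
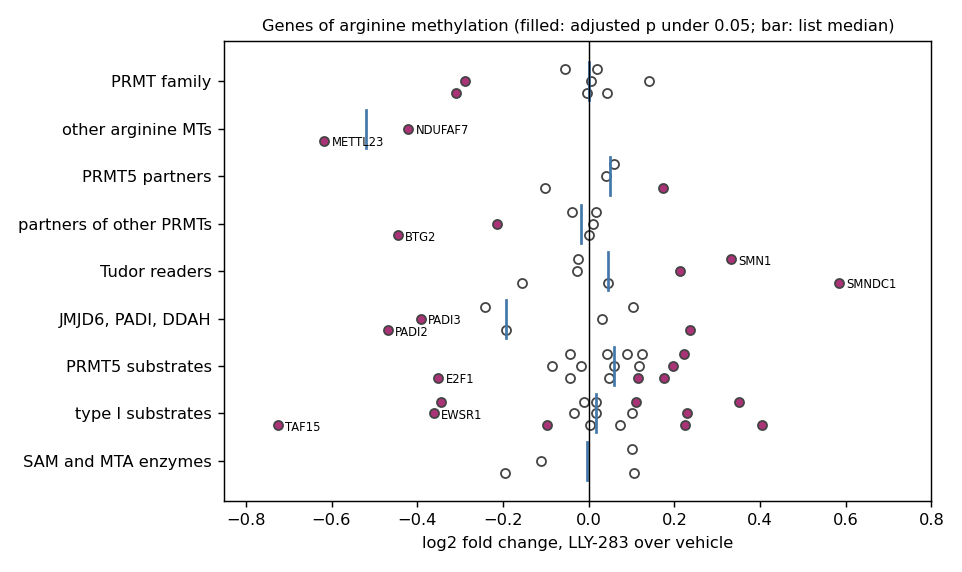
Log2 fold changes (LLY-283 over vehicle) of the tested genes in the PRMT family and in 8 lists of genes around arginine methylation; filled points had an adjusted p-value under 0.05 and the bars are list medians. The PRMT family lay between -0.31 and 0.14, whereas TAF15 (-0.73), METTL23 (-0.62) and SMNDC1 (0.59) were the genes farthest from 0.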

How the data were processed

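Poly(A) RNAseq libraries of U251 cells (4 vehicle, 4 LLY-283) were analysed. The authors trimmed and aligned the reads to GRCh38 and estimated gene levels, and deposited 1 table of TPM with 8 library columns, of which 0 were left unused. The submitters' processing notes name bcl2fastq 2.20, cutadapt 1.18, STAR 2.7.0f and RSEM 1.3.1, and the study's methods give other versions of STAR and RSEM. TPM is scaled to a fixed total, so that read depth is unknown, and a shift in abundant transcripts moves all other values. The counting by strand is not given in the sources used here.

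TPM values were transformed as log2(TPM + 0.1), which understates changes of low genes. The 14478 genes averaging 1 TPM or more were fitted with limma 3.58.1 in R 4.3.3 (eBayes with trend, two-sided, LLY-283 minus vehicle), with Benjamini-Hochberg adjustment over all of them and a threshold of 0.05. The procedure was tested on simulated data. Exact permutation tests over the 8 libraries gave a second value per member. Gene positions are those of the GENCODE annotation of GRCh38, and promoters are from RefSeq GRCh38.p14, where 9 of 9 members matched.

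The members and gene lists were chosen with earlier results of these data known. Named were all members, the PRMT5 partners, MTAP and MAT2A, in each other list the 2 called genes with the smallest p in each direction, and the 3 genes most correlated with PRMT5 and with PRMT3. Alternatives were other pseudocounts, filters, scalings, variance models, a replicate block, and each library left out. Splicing was not analysed here, and some genes that the lists and this rule would name are not reported here.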

Additional observations from a re-analysis of the deposited data

Results flagged for a closer look

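Within each group of 4 libraries the gap between the highest or lowest value and its neighbour was set against the whole range, with 0.829 as the critical value (Dixon, 95%). Over 16 comparisons of a member in a group, 2 exceeded it, where chance gives about 1 in 20. PRMT1 in LLY-283 replicate 4, at 234.7 TPM, was separated from the other 3 libraries by 0.917 of the range, and this library also had the low mitochondrial share of 7.19%. PRMT2 in vehicle replicate 1, at 81.79 TPM, was separated by 0.832 of the range. Neither member was called, and leaving out the library gave log2 fold changes of 0.01 for PRMT1 (limma, adjusted p = 0.845) and -0.03 for PRMT2 (limma, adjusted p = 0.591).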

How the results depend on the processing

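Over 20 alternatives and 8 members, 139 of 160 values kept their direction and side of the threshold (or, where not called, stayed uncalled), 14 lost the call (all PRMT9), 7 gained one and 0 called values reversed. The count of members called lower, 2 as reported, was 1 without a filter on low values, with a filter of 5 TPM, with quantile normalization, with median-of-ratios scaling, with the GC and length trend removed, and with the replicate block with or without that removal. With 1 library left out at a time it was 1 to 2, and it was 2 only without LLY-283 replicate 3. The count called higher, 0 as reported, was 1 with quantile normalization, 1 with median-of-ratios scaling, 3 with the GC and length trend removed (PRMT7, with PRMT1 at adjusted p = 0.0376 and PRMT6 at 0.0433 in limma), and 1 with that removal and the replicate block. With 1 library left out it was 0 to 1, and 1 only without vehicle replicate 4. No member passed 1.5-fold in any of the 21 fits. The listed genes called numbered 25 as reported and 18 to 34 in the alternatives (18 to 29 with 1 library left out).

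Same-numbered replicates did not deviate together over all genes tested (r = -0.04, 0.03, -0.0016 and -0.09). Differently numbered replicates gave r = -0.21 to 0.20. With 4 libraries per group and all genes weighted alike, these values cannot decide whether the numbers pair the samples. The replicate block left 1095 genes higher and 2201 lower, against 1247 and 2541. Over all genes the median log2 fold change, -0.05 as reported, became 0.01 with quantile normalization and 0.03 with the GC and length trend removed. The cause of these differences was not tested.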

Other observations

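The ratio of PRMT7 to PRMT3 transcripts, a pair chosen after their values were seen, was 1.72, 1.75, 1.86 and 2.18 in the vehicle libraries and 2.43, 2.66, 2.62 and 2.40 in the LLY-283 libraries. All LLY-283 values lay above all vehicle values, and no test is given. WDR77 and PRMT5 are both subunits of the methylosome. The ratio of WDR77 to PRMT5 was 0.618, 0.604, 0.612 and 0.676 with vehicle and 0.591, 0.606, 0.563 and 0.569 with LLY-283. The vehicle mean of 0.628 ± 0.0330 was above the LLY-283 mean of 0.582 ± 0.0201 (SD, n = 4 each), with LLY-283 replicate 2 within the vehicle range.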
